A study of Mus musculus with 96 samples.

Results

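The Slc25 family of mitochondrial carriers was described in mouse intestinal organoids of 4 genotypes. Members were taken by name, as all genes whose mouse symbol is Slc25a followed by a number. Of 55536 gene IDs, 47 matched, and the 41 with a mean of 1 or more TPM, transcripts scaled to length and library size, in any genotype are reported. The other 6 (Slc25a2, Slc25a18, Slc25a21, Slc25a31, Slc25a41 and Slc25a54) averaged at most 0.12 TPM in every genotype.

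RNA-seq was run on epithelial organoids of C57BL/6 mice at 12 time points, 2 h apart, between 24 and 46 h after 1 h in 0.1 µM dexamethasone, a glucocorticoid that sets cellular clocks to a common phase. The genotypes are Apc-min (labelled APCmin/- with BMAL1+/+), Apc-min Bmal1-null (APCmin/- without functional Bmal1), Bmal1-null (APC+/+ without functional Bmal1) and control (APC+/+ with BMAL1+/+). All 4, controls included, received dexamethasone. Apc keeps Wnt signalling low, and the circadian clock needs the transcription factor Bmal1, whose gene symbol is Arntl. There are 22 libraries of each genotype with expression values (88 together), with 28.8 to 48.1 M uniquely mapped reads each. Organoids came from 2 lines per genotype, and the line of each library is not labelled, so the p-values cover how libraries vary, which may differ from how lines vary. Cultures with APCmin/- were kept in EN medium, those with APC+/+ in ENR, which adds the Wnt agonist R-spondin, and the cultures also form separate series of library numbers. Genotype, medium and library series cannot be told apart in any Apc comparison below.

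Slc25 proteins exchange nucleotides, phosphate, amino acids, organic acids, cofactors and metal ions across the inner mitochondrial membrane, which small charged molecules do not cross unaided. They share a fold of repeated membrane-spanning segments and mostly work as antiporters or symporters. In intestinal epithelium they serve oxidative phosphorylation, the malate-aspartate shuttle, the export of citrate for lipid synthesis, arginine and ornithine metabolism, fatty acid oxidation and heme synthesis. All are encoded in the nucleus and made in the cytosol, and most are inserted into the membrane by the TOM and TIM22 import complexes.

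The clock protein BMAL1 binds DNA with a partner at the E-box, and β-catenin, which Apc keeps low, acts through TCF/LEF factors, so the stretches before the start sites were searched for both motifs. RefSeq promoters (GRCm38.p6) matched 32 of the 41 reported members with 41 start sites. Letters were sought on both strands in the 250 bases before each start. The E-box CACGTG, which reads the same on both strands, was present at 7 of 41 starts (17.1%) and in 6.02% of all 32851 promoters of that table. Of the 7 starts, 2 belong to Slc25a14 and share the same E-box. The stretches of the members held a median of 57.6% G and C, against 52.4% over all promoters. Whether these shares differ was not tested. The 6 members that hold it are shown, with the E-box in capitals, since they are the ones to read beside the Bmal1 comparisons. Starts are those of RefSeq, and GENCODE places an exon over part of the stretch shown for Slc25a33. The GENCODE gene there takes in the E-box.
Slc25a1, citrate carrier, chr16:17928426-17928469, minus strand: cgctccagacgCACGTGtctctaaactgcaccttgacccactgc
Slc25a13, aspartate-glutamate carrier citrin, chr6:6217266-6217325, minus strand: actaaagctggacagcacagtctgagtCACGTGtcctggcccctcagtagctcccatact
Slc25a14, uncoupling-protein-like carrier, chrX:48623382-48623411, plus strand: tccacctccctcCACGTGacgccccaccca
Slc25a15, ornithine carrier, chr8:22398322-22398381, minus strand: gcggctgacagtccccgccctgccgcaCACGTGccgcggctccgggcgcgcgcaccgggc
Slc25a33, pyrimidine nucleotide carrier, chr4:149774268-149774287, minus strand: cccggcctccgcCACGTGac
Slc25a36, pyrimidine nucleotide carrier, chr9:97111196-97111255, minus strand: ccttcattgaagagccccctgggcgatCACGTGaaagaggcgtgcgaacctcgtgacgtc

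The TCF/LEF motif ATCAAAG, sought on both strands, stood before 3 of the 41 starts (7.32%) and in 3.21% of all promoters. The 3 members that hold it are shown, with the motif in capitals, to be read beside the Apc comparisons. The stretch of Slc25a22 lies before a RefSeq start inside the gene and touches an exon of the GENCODE annotation. The palindromic core motif of NRF1 and the ERR motif CAAGGTCA, both tied to mitochondrial genes, stood before 0 of the 41 starts, and in 0.782 and 1.33% of all promoters. A match describes letters only, and was not tested as a binding site.
Slc25a22, glutamate carrier, chr7:141434696-141434724, minus strand: tagctagctgcCTTTGATcaagggtggga
Slc25a28, iron carrier mitoferrin-2, chr19:43675002-43675060, minus strand: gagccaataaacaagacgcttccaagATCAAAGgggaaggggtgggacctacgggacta
Slc25a43, carrier of unassigned substrate, chrX:36743551-36743609, plus strand: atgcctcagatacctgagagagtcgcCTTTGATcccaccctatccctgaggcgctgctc

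A pair of libraries went against their Bmal1 labels, and the family shows it. Both are replicate 1 at 28 h. Arntl was at 14.7 TPM in the one with the Apc-min Bmal1-null label, the highest of that genotype, and at 4.09 TPM in the one with the Apc-min label, the lowest of that genotype. Slc25a4 was at 288 TPM in the first and at 186 TPM in the second, each outside the range of the other libraries with the same label. Of the 20 members that differed between Apc-min Bmal1-null and Apc-min, 17 lay nearer to the other genotype's mean in the first library, and all 20 did in the second. In the remaining libraries that number ran up to 8 in Apc-min Bmal1-null, and up to 11 in Apc-min. Both libraries stay under their labels, and some of the results that they touch are also given without them.

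Other checks of the samples bear on the Apc comparisons. The 7 enterocyte markers summed to 128 to 230.4 TPM in Apc-min libraries and 121 to 268 TPM in Apc-min Bmal1-null libraries, against 5267 to 7721 TPM in Bmal1-null and 5447 to 8041 TPM in control libraries. Of these 7, 5 averaged under 1 TPM in Apc-min, as did 4 in Apc-min Bmal1-null. The 4 goblet cell markers summed to a median of 96.9 TPM in Apc-min (54 to 292) or 252 TPM in Apc-min Bmal1-null (140.2 to 359.6), against 5291 TPM in Bmal1-null (4731 to 6696) and 5544 TPM in control (4798 to 7003), and all 4 enteroendocrine markers averaged under 1 TPM in both APCmin/- genotypes. The 4 Paneth cell markers summed to a median of 1895 TPM in Apc-min (373 to 3556) or 527 TPM in Apc-min Bmal1-null (303 to 2034), against 5736 TPM in Bmal1-null (4828 to 6734) and 5366 TPM in control (4436 to 6159), and 2 of them averaged under 1 TPM in both APCmin/- genotypes. Mmp7 went against that sum, averaging 1843 TPM in Apc-min and 563 with Bmal1 lost too, against 393 in Bmal1-null and 465 in control. Lyz1, Ang4 and Defa17 were lower in both APCmin/- genotypes. The 4 stem cell markers summed to 89.2 to 255 TPM in Apc-min and 75.1 to 164 TPM with Bmal1 lost as well, against 481 to 1204 TPM in Bmal1-null and 557 to 1153 TPM in control. These markers disagreed. Olfm4, Smoc2 and Lgr5 were lower in both APCmin/- genotypes, with Olfm4 at 0.02 TPM against 526 in Bmal1-null and 577 in control. Ascl2 was higher, averaging 103 TPM in Apc-min and 88.4 with Bmal1 lost too, against 49.5 in Bmal1-null and 47.7 in control. The 4 tuft cell markers summed to 22.9 to 131 TPM in Apc-min and 15 to 122 TPM with Bmal1 lost as well, against 5 to 11.5 TPM in Bmal1-null and 5.15 to 12.2 TPM in control. Avil alone made that sum higher, averaging 63.2 TPM in Apc-min, 29.2 with Bmal1 lost too, 2.15 in Bmal1-null and 2.41 in control. Trpm5, Dclk1 and Pou2f3 went the other way, each averaging under 1 TPM in both APCmin/- genotypes. In the APC+/+ genotypes these 3 averaged 1.70 to 2.68 TPM. The 5 markers of epithelium as a whole summed to a median of 10956 TPM in Apc-min and 12585 TPM with Bmal1 lost as well, against 11948 TPM in Bmal1-null and 11849 TPM in control. Behind these similar sums, Epcam averaged 644 and 613 TPM in those APCmin/- genotypes, against 1621 in Bmal1-null and 1680 in control. Krt8 was also lower in both. Krt18 was higher, at 2389 and 2658 TPM against 1070 and 1083. Krt19 and Cdh1 differed in direction between the APCmin/- genotypes. The share of reads left unmapped for being too short averaged 1.3% in Apc-min, 1.31% in Apc-min Bmal1-null, 6.00% in Bmal1-null and 6.73% in control. In bulk RNA fewer cells of a type and less RNA per cell cannot be told apart, and the part of these values in the Apc results was not tested.

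The family's summed level differed little beside that of single members. The 47 genes summed to 4305 ± 153 TPM in Apc-min, 4259 ± 243 in Apc-min Bmal1-null, 4503 ± 156 in Bmal1-null and 4539 ± 194 in control (SD, n = 22 each). A pair of members made up most of that sum. Slc25a5, the adenine nucleotide translocator ANT2, which swaps ADP for ATP, averaged 1255 ± 86.4 TPM in Apc-min, 1309 ± 91.8 in Apc-min Bmal1-null, 1605 ± 55.8 in Bmal1-null and 1644 ± 62.2 in control. Slc25a3, the carrier that brings in phosphate for ATP synthase, averaged 1187 ± 53.9 TPM in Apc-min, 1197 ± 36.6 in Apc-min Bmal1-null, 1073 ± 53.9 in Bmal1-null and 1067 ± 41.7 in control. Its lowest, median and highest libraries were at 1067, 1201 and 1268 TPM in Apc-min. They were at 1109.8, 1203 and 1262 TPM in Apc-min Bmal1-null, 988, 1051 and 1166 in Bmal1-null, and 994, 1078 and 1162 in control, so the genotypes overlap. Slc25a5 and Slc25a3 together held 56.7% of the family's TPM in Apc-min, 58.9% in Apc-min Bmal1-null, 59.5% in Bmal1-null and 59.8% in control.

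Behind them, as means over the 4 genotypes, came Slc25a1, which exports citrate, at 339.9 TPM, and Slc25a39, which imports glutathione, at 289 TPM. The dicarboxylate carrier Slc25a10 averaged 166 TPM, the translocator ANT1, Slc25a4, 130.3 TPM, and the oxoglutarate carrier Slc25a11 127 TPM. Slc25a24, a calcium-regulated ATP-Mg/phosphate carrier, averaged 86.9 TPM, the peroxisomal carrier Slc25a17 67.5 TPM and mitoferrin-2, Slc25a28, 45.8 TPM. TPM are scaled to transcript length, so these levels compare across genes. Of those not described further, Slc25a39 ranged over 246 to 351 TPM in Apc-min, 227 to 309.7 in Apc-min Bmal1-null, 272 to 344 in Bmal1-null and 258 to 311 in control. Slc25a24 ranged over 62 to 99 TPM, 36.4 to 118, 62.1 to 126 and 54.6 to 140.4 TPM in those genotypes, and Slc25a28 over 42.2 to 52.1, 43 to 55.5, 38.8 to 45.7 and 37.3 to 50.9 TPM. All 3 overlap between every pair of genotypes. Among members at 1 TPM or more, the SD over libraries was lowest for Slc25a3 in Apc-min Bmal1-null (3.06% of the mean) and highest for Slc25a35 in the same genotype (41.4%). Slc25a5 has a named pseudogene in the annotation, and reads from it could be split.

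The largest differences in the family came with Apc genotype, and Slc25a4 led them. Slc25a4 (ANT1, chromosome 8, 46206797 to 46211284, minus strand, GRCm38) had 186, 279.6 and 308 TPM as the lowest, median and highest of 22 Apc-min libraries, against 21.8, 26.7 and 34.2 TPM in control libraries. In Apc-min Bmal1-null libraries it had 166, 193 and 288 TPM, against 20.1, 24.5 and 28.0 TPM in Bmal1-null libraries. Every APCmin/- library stood above every library of the APC+/+ genotypes. Its mean was 9.85-fold higher in Apc-min than in control (log2 difference 3.26 ± 0.05, SE, adjusted p = 1.96e-35, limma over all genes) and 8.01-fold higher in Apc-min Bmal1-null than in Bmal1-null (2.95 ± 0.04, adjusted p = 1.04e-36).

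Its sister gene moved the other way. Slc25a5 (ANT2, chromosome X, 36795651 to 36798807, plus strand) had 1078, 1264 and 1372 TPM in Apc-min libraries, lowest, median and highest, against 1451, 1636 and 1758 TPM in control libraries. The Apc-min Bmal1-null libraries had 1056, 1329 and 1423 TPM, against 1505, 1602 and 1725 TPM in Bmal1-null libraries. Neither pair of ranges met, and the log2 differences were -0.39 ± 0.03 and -0.30 ± 0.03 (SE, adjusted p = 6.35e-15 and 2.61e-12). As a share of Slc25a4 plus Slc25a5, Slc25a4 was 18 ± 1.51% in Apc-min, 13 ± 1.5% in Apc-min Bmal1-null, 1.49 ± 0.14% in Bmal1-null and 1.66 ± 0.2% in control. The sum of both translocators was 1529 ± 93.4 TPM in Apc-min, 1504 ± 95.1 in Apc-min Bmal1-null, 1629.5 ± 55.9 in Bmal1-null and 1671 ± 63.6 in control.

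**Figure D1:**
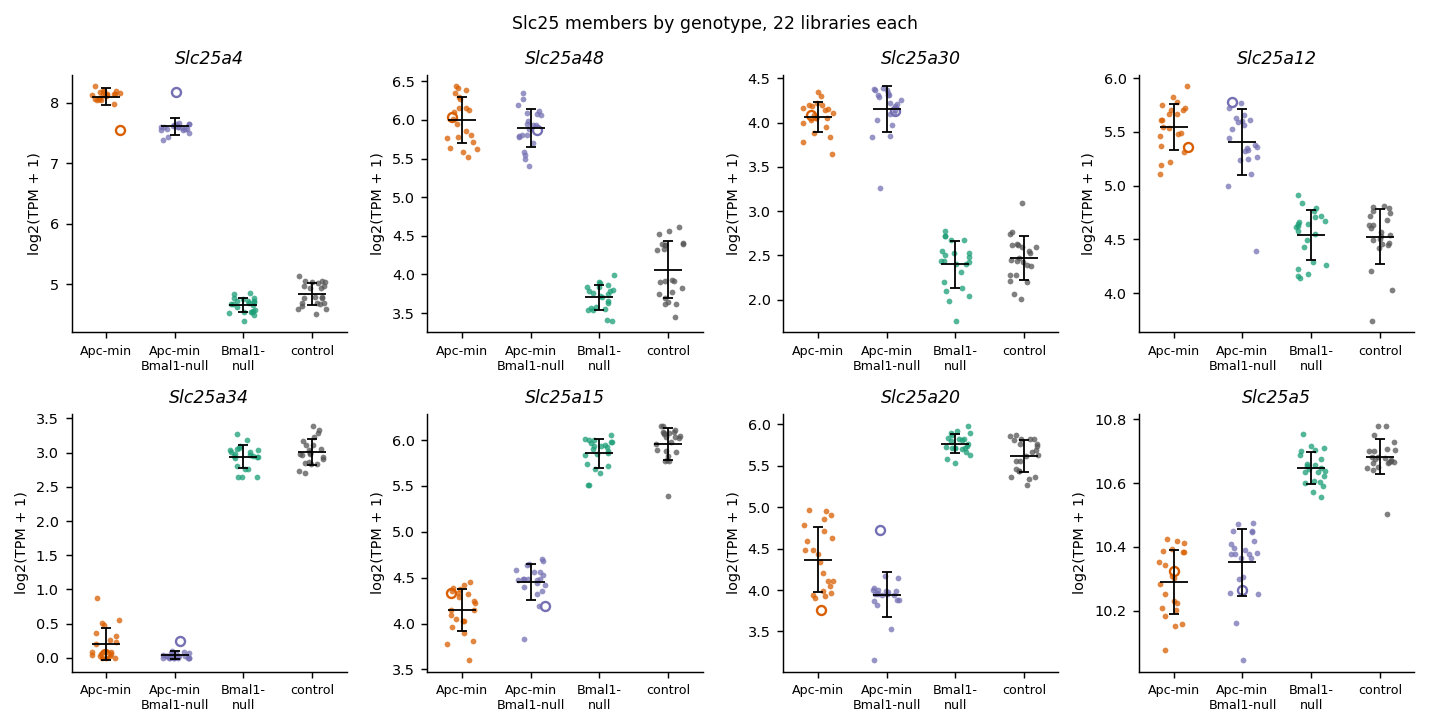
log2(TPM + 1) of 8 Slc25 members in each of 22 libraries per genotype (points), with the mean and SD (black); axes do not start at 0, and open circles are the 2 libraries that went against their Bmal1 labels. Slc25a4, Slc25a48, Slc25a30 and Slc25a12 stand higher in the APCmin/- genotypes and Slc25a34, Slc25a15, Slc25a20 and Slc25a5 lower, while for Slc25a4 the open circles sit at the level of the other APCmin/- genotype.

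Slc25a34, a carrier whose substrate is not assigned, marked the other end. This gene (chromosome 4, 141618824 to 141623821, minus strand) had at most 0.83 TPM in Apc-min libraries, with a median of 0.06, against 5.49, 6.93 and 9.53 TPM in control libraries. In Apc-min Bmal1-null libraries it reached at most 0.19 TPM, with a median of 0.02, against 5.26, 6.79 and 8.71 TPM in Bmal1-null libraries. It was listed at 0 in 3 Apc-min and 9 Apc-min Bmal1-null libraries, and the ranges lie far apart. The differences of -2.83 ± 0.07 and -2.91 ± 0.04 on the log2(TPM + 1) scale (SE, adjusted p = 1.19e-29 and 4.62e-36) understate the change of so low a gene. It entered these tests only through the APC+/+ genotypes, where it is high.

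Slc25a48, reported as a mitochondrial choline transporter, and Slc25a30, an uncoupling-protein-like carrier, were the next largest that rose. Slc25a48 (chromosome 13, 56438355 to 56474239, plus strand) had 44.9, 64.3 and 85.6 TPM in Apc-min libraries, against 9.88, 14.2 and 23.5 TPM in control libraries. In Apc-min Bmal1-null libraries it had 41.4, 59.1 and 80.6 TPM, against 9.57, 12.3 and 15 TPM in Bmal1-null libraries. Both pairs of ranges were apart, and Slc25a48 rose by 1.94 ± 0.11 and 2.18 ± 0.06 on the log2 scale (SE, adjusted p = 6.70e-18 and 3.31e-28). Slc25a30 (chromosome 14, 75760117 to 75787037, minus strand) averaged 15.9 ± 1.90 TPM in Apc-min against 4.62 ± 0.99 in control, and 17 ± 2.74 TPM in Apc-min Bmal1-null against 4.36 ± 0.93 in Bmal1-null (SD, n = 22 each). Its libraries spanned 11.5 to 19.3 TPM in Apc-min, 8.56 to 19.9 in Apc-min Bmal1-null, 2.39 to 5.84 in Bmal1-null and 3.01 to 7.54 in control. It rose 3.44-fold and 3.91-fold in these comparisons, again with no overlap.

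Among members that fell, Slc25a15 and Slc25a20 were far down in both comparisons. Slc25a15, the ornithine carrier of the urea cycle and arginine metabolism (chromosome 8, 22375551 to 22398597, minus strand), had 11.2, 17.2 and 20.8 TPM in Apc-min libraries, against 40.8, 64.4 and 70.4 TPM in control libraries. It averaged 21.1 ± 2.73 TPM in Apc-min Bmal1-null against 57.3 ± 6.06 in Bmal1-null. These groups did not overlap, and the log2 differences were -1.81 ± 0.07 and -1.41 ± 0.06 (SE). Slc25a20, which carries acylcarnitines in for fatty acid oxidation (chromosome 9, 108662088 to 108684641, plus strand), had 12.5, 19.9 and 30.3 TPM in Apc-min libraries, against 37.6, 49.3 and 57.7 TPM in control libraries. In Apc-min Bmal1-null libraries it had 7.91, 14.5 and 25.5 TPM, against 45.3, 52.7 and 62.4 TPM in Bmal1-null libraries. Again no library crossed over, with log2 differences of -1.26 ± 0.09 and -1.83 ± 0.07.

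Counted over the family, most members differed with Apc genotype, as did most genes. In Apc-min against control, 20 of 40 tested members rose and 15 fell at an adjusted p under 0.05, where 50.5% of all genes tested rose and 31.1% fell. In Apc-min Bmal1-null against Bmal1-null, 20 of 41 rose and 18 fell, against 45.7% and 38.8% of all genes. The median member differed by 0.11 and -0.04 (log2), and the median gene by 0.17 and 0.07. Libraries did not overlap at all for 8 members that rose and 7 that fell in the first comparison and for 5 and 9 in the second, where 28.1% and 30.4% of all genes tested showed no overlap. The comparisons share no library, and 32 of the 40 members tested in both passed in both with the same sign (18 higher, 14 lower), 80% of them against 71% of all genes.

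Scaling changes the balance of these counts. Scaled by the median of ratios across genes, the median gene in Apc-min minus control was at 0.01 in place of 0.17, with 16 members higher and 18 lower in place of 20 and 15, and 50.4% in place of 61.8% of all called genes higher. Slc25a3, Slc25a28 and Slc25a39 were then at -0.0095, -0.037 and -0.071 and did not pass, and Slc25a13 did not pass either, so no direction is drawn for the first 3 in Apc-min against control. In Apc-min Bmal1-null minus Bmal1-null the same scaling put the median gene at 0.01 in place of 0.07 and the median member at -0.11 in place of -0.04, with 18 members higher and 20 lower in place of 20 and 18, and 50.4% in place of 54.1% of all called genes higher. Slc25a3 was there at 0.095 and did not pass (adjusted p = 0.0796).

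**Figure D2:**
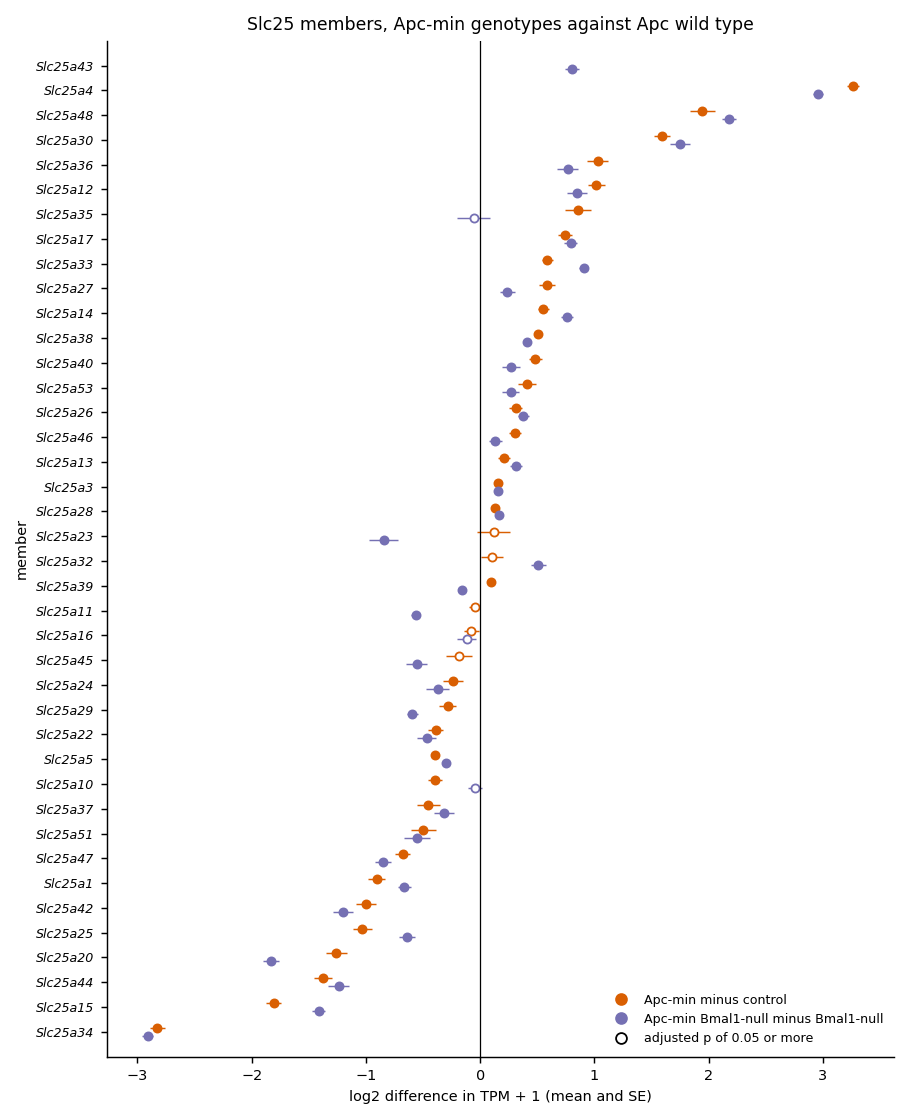
Difference in log2(TPM + 1) of the reported members but 1, with SE, in Apc-min minus control (orange) and Apc-min Bmal1-null minus Bmal1-null (purple), 22 libraries per genotype; open points did not pass at an adjusted p of 0.05. The comparisons run from Slc25a4, at 3.26 and 2.95, to Slc25a34, at -2.83 and -2.91, and Slc25a43 was tested in the second alone.

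Groups by substrate hold few members, and no pattern by substrate is drawn from their counts. These stand beside 50.5% of all genes higher and 31.1% lower in Apc-min against control. In Apc-min Bmal1-null against Bmal1-null, 45.7% of all genes were higher and 38.8% lower. The pyrimidine nucleotide carriers Slc25a33 and Slc25a36 both rose, with Slc25a33 at 18.4 ± 1.88 TPM in Apc-min against 11.8 ± 1.13 in control and Slc25a36 at 31 ± 8.21 against 14.3 ± 2.47. In Apc-min Bmal1-null they averaged 22.2 ± 1.44 and 24.3 ± 5.55 TPM, against 11.4 ± 1.11 and 13.8 ± 2.95 in Bmal1-null. The uncoupling-protein-like carriers Slc25a30 and Slc25a14 rose in both comparisons, with Slc25a14 at 7.83 ± 1.16 TPM in Apc-min against 4.99 ± 0.51 in control. Slc25a27 of the same group, a low member at 1.69 ± 0.56 against 0.76 ± 0.24 TPM, also passed as higher in both. It entered the tests only through the APCmin/- genotypes, where it is high, so its rise is not counted with theirs. Slc25a27 did not pass in the higher-numbered libraries alone in Apc-min Bmal1-null against Bmal1-null (0.23, adjusted p = 0.0586).

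Among adenine nucleotide and phosphate carriers, which also include the coenzyme A carriers Slc25a17 of peroxisomes and Slc25a42 of mitochondria, all 5 tested passed in each comparison, 3 higher and 2 lower, with Slc25a3 among the higher only as scaled in TPM. Slc25a17 had 68.7, 82.5 and 96.8 TPM in Apc-min libraries against 35, 49.8 and 62.2 TPM in control libraries, with no overlap. Slc25a42 fell to 6.43 ± 1.23 TPM in Apc-min, against 13.8 ± 2.78 in control, and to 5.50 ± 1.33 in Apc-min Bmal1-null, against 13.6 ± 2.44 in Bmal1-null. Of the 3 tested ATP-Mg/phosphate carriers, Slc25a24 and Slc25a25 fell in both comparisons and Slc25a23 passed, as lower, in Apc-min Bmal1-null against Bmal1-null alone. In the higher-numbered libraries alone Slc25a24 did not pass in Apc-min against control (-0.016, adjusted p = 0.82).

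Amino acid carriers split by member, with 3 of 7 tested higher and 4 lower in each comparison. Higher were Slc25a12 and Slc25a13, the calcium-regulated aspartate-glutamate carriers of the malate-aspartate shuttle, and the glycine carrier Slc25a38, which feeds heme synthesis. Slc25a13 did not pass in the lower-numbered libraries alone in Apc-min against control (0.082, adjusted p = 0.41). Slc25a12 (aralar) had 33.5, 46.7 and 59.8 TPM in Apc-min libraries against 12.4, 22.5 and 27 TPM in control libraries, and its share of Slc25a12 plus Slc25a13 was 58.3 ± 3.21% in Apc-min, 54.8 ± 3.33% in Apc-min Bmal1-null, 45.1 ± 3.85% in Bmal1-null and 43.9 ± 3.79% in control. Lower, besides Slc25a15, were the branched-chain amino acid carrier Slc25a44 (14.9 ± 2.11 TPM in Apc-min against 40.0 ± 6.88 in control), the glutamate carrier Slc25a22 (31.1 ± 2.91 against 41.2 ± 7.02) and the basic amino acid carrier Slc25a29 (2.45 ± 0.61 against 3.2 ± 0.55). In the higher-numbered libraries alone Slc25a29 did not pass in Apc-min against control (log2 difference 0.017, adjusted p = 0.82).

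Organic acid carriers had no member that rose. Slc25a1, the citrate carrier, had 175, 227 and 308 TPM in Apc-min libraries against 344, 421 and 586 TPM in control libraries. In Apc-min Bmal1-null libraries it had 160, 267 and 316 TPM, against 326, 422 and 505 TPM in Bmal1-null libraries. Slc25a1 fell with no overlap in both, by 0.91 ± 0.07 and 0.66 ± 0.06 on the log2 scale. The dicarboxylate carrier Slc25a10, with 90.01, 139.7 and 179 TPM in Apc-min libraries against 127, 176 and 218 TPM in control libraries, fell there by 0.39 ± 0.06 with overlapping ranges. It did not pass in Apc-min Bmal1-null against Bmal1-null (174 ± 21.2 TPM against 178 ± 23.1 in Bmal1-null, adjusted p = 0.50). Slc25a11, the oxoglutarate carrier, fell in Apc-min Bmal1-null against Bmal1-null by 0.56 ± 0.04 and did not pass in Apc-min against control (adjusted p = 0.33).

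Carriers of vitamins, cofactors and carnitine were mixed, with 4 of 8 higher and 2 lower in Apc-min against control, Slc25a39 being one of the higher as scaled in TPM, and 4 higher and 3 lower in Apc-min Bmal1-null against Bmal1-null. The S-adenosylmethionine carrier Slc25a26 rose by 0.31 ± 0.06 and 0.38 ± 0.05, and the glutathione carrier Slc25a40 by 0.48 ± 0.05 and 0.27 ± 0.08 (log2, SE, Apc-min against control first). The NAD carrier Slc25a51 fell to 31.9 ± 5.27 TPM in Apc-min, against 46.5 ± 12.7 in control. In 1 library set alone, Apc-min against control did not pass for Slc25a26 (0.051, lower-numbered libraries), Slc25a51 (-0.22, higher-numbered) or Slc25a37 (-0.14, higher-numbered), nor did Slc25a40 in Apc-min Bmal1-null against Bmal1-null (0.21, higher-numbered), with adjusted p of 0.58, 0.11, 0.21 and 0.20. Of the mitoferrins, which bring in iron, Slc25a37 fell by 0.45 ± 0.10 and 0.32 ± 0.09, and the share of Slc25a28 in the pair was 65.2 ± 4.11% in Apc-min, 63.7 ± 3.74% in Apc-min Bmal1-null, 55.5 ± 4.39% in Bmal1-null and 55.3 ± 6.24% in control. Slc25a46, which sits in the outer membrane, rose by 0.30 ± 0.05 and 0.13 ± 0.06, and the second did not pass without the pair of doubted libraries (adjusted p = 0.0654). Nor did the second pass under median-of-ratios scaling, with no filter on low values or in the higher-numbered libraries alone. Leaving out 1 library ended that call in 10 of 44 cases.

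**Figure D3:**
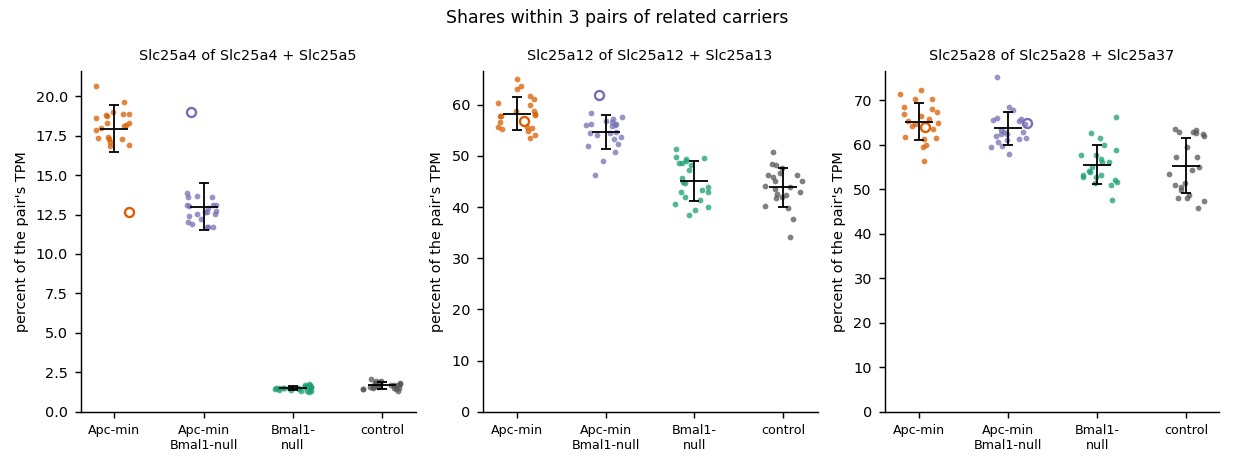
Share of one gene in the summed TPM of a pair of related carriers, in percent, in each of 22 libraries per genotype (points) with the mean and SD (black); open circles are the 2 libraries that went against their Bmal1 labels. The Slc25a4 share averages 18% in Apc-min and 13% with Bmal1 lost too, against 1.49% in Bmal1-null and 1.66% in control, and the Slc25a12 and Slc25a28 shares are also higher in the APCmin/- genotypes.

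Other genes of mitochondrial transport are given for comparison. Of 10 genes of the carrier import machinery, 9 rose in Apc-min against control (50.5% of all genes), 10 in Apc-min Bmal1-null against Bmal1-null (45.7%) and 9 in Apc-min Bmal1-null against Apc-min (24.6%), with median differences of 0.40, 0.77 and 0.27. Tomm70a, the receptor for carrier precursors, averaged 83 ± 15.7 TPM in Apc-min, 104 ± 11.9 in Apc-min Bmal1-null, 53.4 ± 5.72 in Bmal1-null and 55 ± 6.18 in control. Of 15 tested genes for other mitochondrial membrane transport, 6 rose and 6 fell in the first comparison, and 6 rose and 4 fell in the second. Of all genes, 31.1% fell in the first and 38.8% in the second. Vdac3, an outer membrane channel, rose by 0.61 and 0.71 and Mpc1, a pyruvate carrier subunit, fell by 0.66 and 1.06. Of family proteins under other symbols, Ucp2 was the most abundant, at 1096 ± 317 TPM in Apc-min, 796 ± 229.9 in Apc-min Bmal1-null, 875 ± 199 in Bmal1-null and 909 ± 201 in control, and Mtch1 and Mtch2 fell in both comparisons.

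With Apc wild type, loss of Bmal1 moved little in the family. Of 39 members tested in Bmal1-null against control, 0 rose and 2 fell, where 2.09% of all genes tested rose and 1.47% fell. Slc25a48 had 9.57, 12.3 and 15 TPM in Bmal1-null libraries, against 9.88, 14.2 and 23.5 TPM in control libraries, with overlapping ranges, and fell by 0.35 ± 0.09 on the log2 scale (adjusted p = 0.021). Slc25a4 had 20.1, 24.5 and 28.0 TPM against 21.8, 26.7 and 34.2 TPM, also overlapping, and fell by 0.18 ± 0.04 (adjusted p = 0.00974). Both were lower at 12 of 12 time points. The other 37 differed by -0.10 to 0.18, and none of the 6 members with an E-box passed (-0.10 to -0.02). Both calls rest on the lower-numbered of the libraries in each group. In the lower-numbered libraries Slc25a48 fell by 0.61 and Slc25a4 by 0.29 (adjusted p = 0.000899 and 0.00112), and in the higher-numbered libraries the differences were -0.10 and -0.08 (adjusted p = 0.99 and 0.86).

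In APCmin/- organoids many more members differed with Bmal1, as did many more genes. Of 40 tested in Apc-min Bmal1-null against Apc-min, 8 rose and 12 fell, where 24.6% of all genes rose and 35.7% fell, with medians of -0.00 for members and -0.04 for all genes. Without both doubted libraries 9 members rose and 13 fell, with 40.5% in place of 40.8% of all called genes higher. Median-of-ratios scaling gave 18 members higher and 11 lower, and 53.4% in place of 40.8% of all called genes higher. Within the lower-numbered libraries 14 rose and 9 fell, with 53.3% of all called genes higher, and within the higher-numbered ones 5 rose and 14 fell, with 28.6% of called genes higher. The Paneth cell markers, at a median of 527 TPM in Apc-min Bmal1-null against 1895 TPM in Apc-min, and the goblet cell markers, at 252 against 96.9 TPM, had other levels too, and their part in the result was not tested. Markers within each list disagreed. Mmp7 averaged 563 against 1843 TPM and Lyz1 55.8 against 74.6 TPM, while Ang4 and Defa17, under 1 TPM in both, were higher. Of the goblet cell markers, Tff3 averaged 229 against 47 TPM and Fcgbp 8.53 against 74.5 TPM. Clca1 was higher and Muc2 lower, both under 1 TPM. The changes described next passed in both sets unless said otherwise.

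Slc25a4 and Slc25a11 separated the genotypes. Slc25a4 had 166, 193 and 288 TPM in Apc-min Bmal1-null libraries, against 186, 279.6 and 308 TPM in Apc-min libraries. Ranges overlapped only through the 2 libraries that went against their labels, and without them spanned 166 to 202 TPM in Apc-min Bmal1-null and 251 to 308 TPM in Apc-min. It fell by 0.49 ± 0.05 on the log2 scale (adjusted p = 6.01e-10), at 12 of 12 time points. Slc25a11, the oxoglutarate carrier of the malate-aspartate shuttle (chromosome 11, 70644196 to 70647479, minus strand), had 84.6, 90.8 and 144 TPM in Apc-min Bmal1-null libraries, against 88.6, 133 and 156 TPM in Apc-min libraries. Without that pair it spanned 84.6 to 104 TPM in Apc-min Bmal1-null and 107 to 156 TPM in Apc-min, again with no overlap, and it fell by 0.46 ± 0.06 (adjusted p = 6.65e-08).

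Slc25a23 and Slc25a35 fell most. Slc25a23, a calcium-regulated ATP-Mg/phosphate carrier (chromosome 17, 57043711 to 57059863, minus strand), had 3.68, 7.32 and 15.7 TPM in Apc-min Bmal1-null libraries, against 4.76, 15.2 and 23.5 TPM in Apc-min libraries. Ranges overlapped, and it fell by 0.82 ± 0.12 on the log2 scale (adjusted p = 4.05e-07). Slc25a35, whose substrate is not assigned, averaged 17.6 ± 7.27 TPM in Apc-min Bmal1-null against 29.7 ± 7.97 in Apc-min (SD, n = 22 each), a fall of 0.70 ± 0.12, with 5.81, 17.3 and 39.4 TPM as lowest, median and highest against 12.4, 31.1 and 45.6 TPM. For Slc25a23 and Slc25a35 alike, the highest Apc-min Bmal1-null and the lowest Apc-min value are those of the doubted libraries. Slc25a11, Slc25a23 and Slc25a35 overlap protein-coding genes on the opposite strand (Rnf167, Crb3 and Rangrf), and whether counting used the strand is not given in the sources used here, so their reads are uncertain. The same holds for Slc25a25 (Naif1), Slc25a26 (Lrig1), Slc25a46 (B930094E09Rik) and Slc25a53 (Zcchc18). The low member Slc25a27, at 0.33, 1.09 and 1.78 TPM in Apc-min Bmal1-null libraries against 0.91, 1.64 and 3.36 TPM in Apc-min libraries, fell by 0.30 ± 0.07, lower at 12 of 12 time points.

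Slc25a43, of unassigned substrate (chromosome X, 36743659 to 36777202, plus strand), averaged over 1 TPM in Apc-min Bmal1-null alone, and so was tested only through the genotype where it is high. It had 0.24, 1.31 and 1.80 TPM in Apc-min Bmal1-null libraries, against 0.21, 0.41 and 1.32 TPM in Apc-min libraries. Ranges overlapped, with the lowest Apc-min Bmal1-null and the highest Apc-min value both in the doubted libraries. Slc25a33 had 17.7, 22.5 and 24.1 TPM in Apc-min Bmal1-null libraries, against 16.1, 17.9 and 23.8 TPM in Apc-min libraries, and rose by 0.26 ± 0.04. Its lowest Apc-min Bmal1-null and highest Apc-min value are also those of the doubted libraries. Slc25a10 rose to 174 ± 21.2 TPM, against 135 ± 20.3 in Apc-min. Of the 6 members with an E-box, 4 rose (Slc25a1, Slc25a14, Slc25a15 and Slc25a33, by 0.17 to 0.31), Slc25a36 fell by 0.27 and Slc25a13 did not pass. In the lower-numbered libraries alone Slc25a1 and Slc25a14 did not pass, nor did Slc25a15 and Slc25a36 in the higher-numbered ones.

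**Figure D4:**
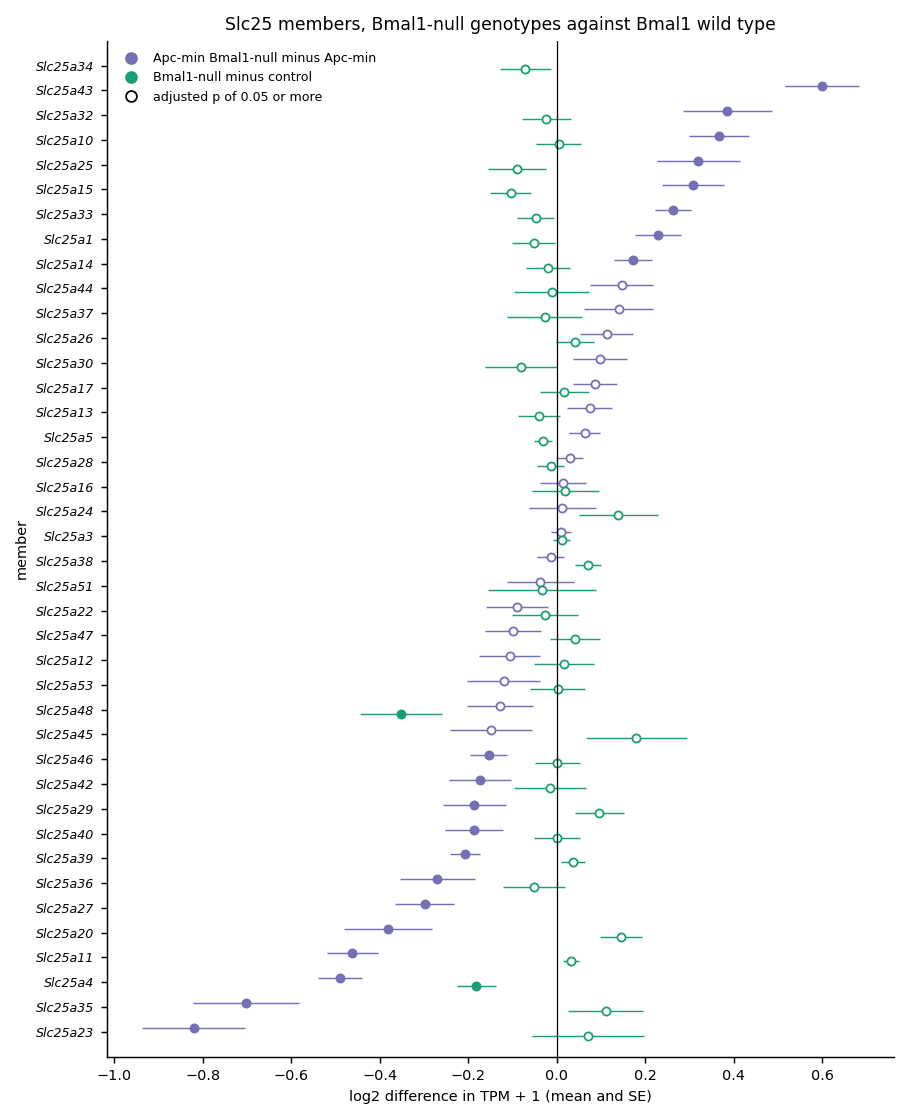
Difference in log2(TPM + 1) of the reported members but 1, with SE, in Apc-min Bmal1-null minus Apc-min (purple) and Bmal1-null minus control (green), 22 libraries per genotype; open points did not pass at an adjusted p of 0.05. Purple points spread from -0.82 for Slc25a23 to 0.60 for Slc25a43, and green ones stay between -0.35 and 0.18.

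The difference between these Bmal1 effects was tested as an interaction over all 88 libraries. It passed for 19 of 41 members, where 47.7% of all genes passed. Slc25a11 had the lowest adjusted p (1.18e-10), with 95.5 ± 12.7 TPM in Apc-min Bmal1-null against 134 ± 18.9 in Apc-min, and 141 ± 4.89 TPM in Bmal1-null against 138 ± 4.32 in control. The interaction was -0.51 ± 0.06 on the log2 scale. After Slc25a43, described above by its levels, Slc25a33 (0.32 ± 0.06), Slc25a39 (-0.26 ± 0.05) and Slc25a23 (-0.95 ± 0.19) followed in order of p, and Slc25a39 did not pass under median-of-ratios scaling. Under median-of-ratios scaling 15 were positive and 7 negative in place of 9 and 10, with 52.9% in place of 38% of all called genes positive. Without both doubted libraries 9 were positive and 12 negative, with 38.1% of all called genes positive.

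These Bmal1 comparisons and the interaction did not stand when the unit was the mean of a library set at each genotype, with 2 values per genotype. On that footing few genes of any kind passed in these tests, with 0 of 39 members and 12 of 12654 genes in Bmal1-null against control, 0 of 40 members and 336 of 12885 genes in Apc-min Bmal1-null against Apc-min, and 0 of 41 members and 445 of 13846 genes in the interaction. In Apc-min against control 20 members and 5833 of 13663 genes passed. In Apc-min Bmal1-null against Bmal1-null 36 members passed, where 5652 genes passed as higher and 4813 as lower, of 13404 tested. Library sets are formed by library number within each group and may or may not be the organoid lines, and this way of counting was chosen after the data were seen.

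Time courses were described by genotype, and no test compared them between APCmin/- and APC+/+ organoids. A 24 h cosine was fitted within each genotype, and as 1 cycle was sampled it cannot be told from another single change in the series. It passed for 6 of 39 members in Apc-min, where 12% of all genes passed, for 0 of 40 in Apc-min Bmal1-null (2.59% of all genes), for 0 of 39 in Bmal1-null (0%) and for 0 of 39 in control (0.0557%). At an unadjusted p under 0.05 these limma tests called 6 of 40 members and 1814 of 12206 genes in Apc-min Bmal1-null, 2 of 39 members and 864 of 12550 genes in Bmal1-null, and 5 of 39 members and 1539 of 12570 genes in control. The lowest adjusted p was 0.073 for Slc25a1 in Apc-min Bmal1-null, 0.25 for Slc25a38 in Bmal1-null and 0.35 for Slc25a1 in control.

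Slc25a23 moved most. In Apc-min it averaged 18.8 ± 3.46 TPM at 36 to 46 h (SD, n = 12) and 11 ± 3.34 TPM at 24 to 34 h (n = 10), with an amplitude of 0.56 ± 0.09 (log2, SE), a fitted peak at 40.3 h and a 2.18-fold swing from trough to peak (adjusted p = 0.0163). Slc25a42 passed at the same adjusted p with a 1.47-fold swing, at 7.31 ± 0.77 TPM at 36 to 46 h and 5.37 ± 0.73 TPM at 24 to 34 h. Slc25a35 (1.76-fold), Slc25a36 (1.66-fold) and Slc25a27 (1.48-fold) also peaked near 40 h, and Slc25a14 peaked at 27.7 h with a 1.27-fold swing. All these swings are folds of TPM + 1, which understate the change in TPM of a low member such as Slc25a27. In Apc-min, Slc25a35 averaged 34.6 ± 5.09 TPM at 36 to 46 h and 23.9 ± 6.87 TPM at 24 to 34 h, and Slc25a36 36.2 ± 6.59 and 24.7 ± 4.98 TPM. In the APC+/+ genotypes Slc25a23 averaged 15.2 ± 3.99 TPM at 36 to 46 h and 13.4 ± 4.07 TPM at 24 to 34 h in Bmal1-null, and 12.7 ± 4.19 and 14.2 ± 3.17 TPM in control.

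**Figure D5:**
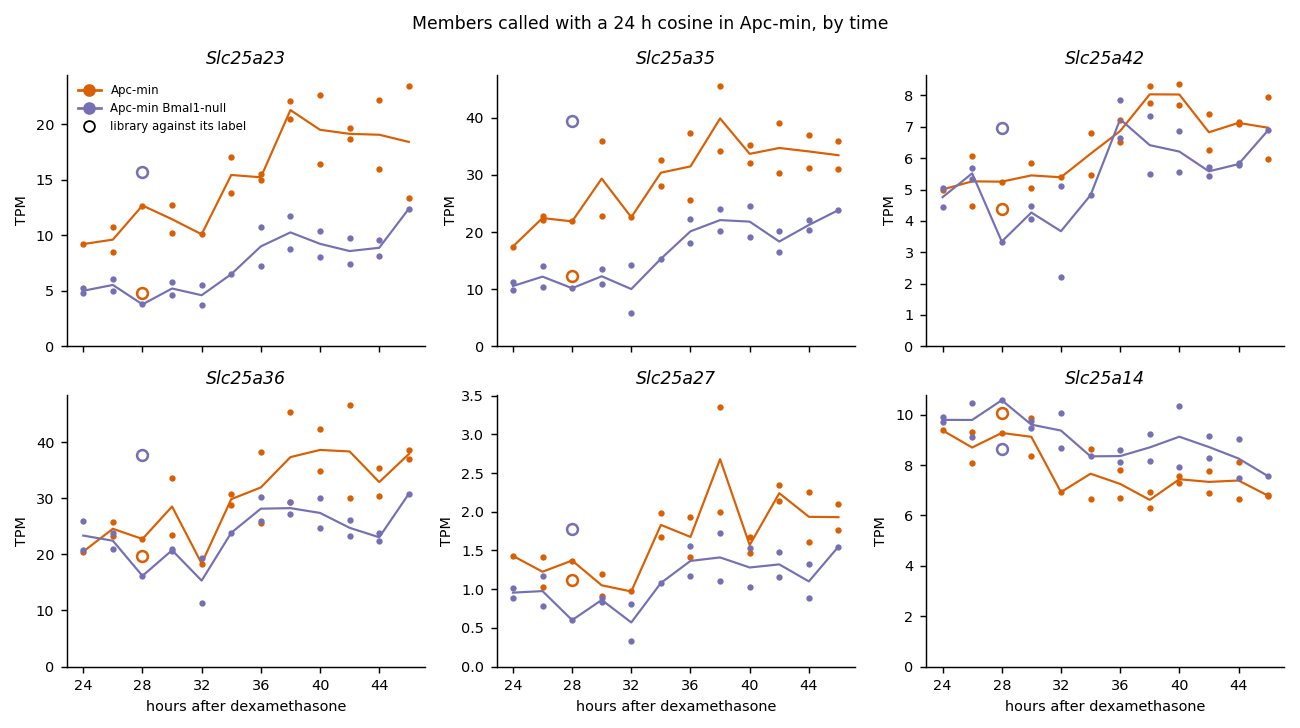
TPM of the 6 members with a called 24 h cosine in Apc-min, by hours after dexamethasone, in Apc-min (orange) and Apc-min Bmal1-null (purple); points are libraries, and lines join time-point means without the 2 libraries that went against their labels (open circles at 28 h). Slc25a23 and Slc25a35 lines are higher in Apc-min throughout. Their open circles are the other way round, at 15.7 and 39.4 TPM under the Apc-min Bmal1-null label and 4.76 and 12.4 TPM under Apc-min.

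Single libraries decide part of this count. Without the doubted Apc-min library, 3 of the 6 passed (Slc25a23, Slc25a42 and Slc25a35), with 401 of 12633 genes. Without Apc-min 42 h replicate 1, 3 members and 403 of 12612 genes passed, and without Apc-min 30 h replicate 1, 10 members and 2643 of 12621 genes. In Apc-min Bmal1-null, 7 members passed without the doubted library of that label (Slc25a1, Slc25a11, Slc25a23, Slc25a27, Slc25a35, Slc25a39 and Slc25a47), with 1444 of 12126 genes, and 2 without 32 h replicate 2, with 458 of 12224 genes. There Slc25a23 had an amplitude of 0.50 ± 0.08 and a peak at 40.7 h, beside 0.48 ± 0.08 and 40.3 h in Apc-min without its doubted library. A difference in cosine between genotypes passed for 0 of 40 members in Apc-min Bmal1-null against Apc-min, with and without both libraries, and for 0 of 39 in Bmal1-null against control, where 0% and 0.0395% of all genes passed. At an unadjusted p under 0.05 limma called 1 member in each, with 880 of 12885 and 237 of 12654 genes. A straight line in time described more, with 11 members called in Apc-min (9 rising, 2 falling, where 31.2% of all genes passed), 6 in Apc-min Bmal1-null (8.44%), 3 in Bmal1-null (6.71%) and 0 in control (2.20%).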

How the data were processed

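Per the labels' protocols, a directional kit was used, and single-end sequencing gave reads of 101 bases. STAR 2.5, RSEM 1.3.0 and GRCm38 are named, with no role or order, per the submitters' processing notes. The authors deposited TPM tables per genotype, mapping statistics with read counts per library, and the percent of reads unmapped as too short, per the file headers. The authors' quantile-normalized TPM tables were normalized within each genotype and served as an alternative. Whether counting used the strand is not given in the sources used here. Of 96 labelled libraries, 88 are in the TPM tables and 8, which the authors marked as not used, are left out.

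From these, log2(TPM + 1) was tested with limma 3.58.1 (R 4.3.3, trend) over all genes with a mean of 1 or more TPM in a compared genotype, with time point as a factor, and p-values were adjusted over all genes by the Benjamini-Hochberg method; adjusted p under 0.05 was called. The interaction used all 88 libraries, and cosines of a 24 h period were tested within genotypes. All adjusted p-values in the text are limma's. The scripts were tested on simulated data. Members, lists and tests were chosen with earlier results of these data known. Values per library are given for the 10 members of highest mean TPM, the 5 largest called differences of one sign at all 12 time points per comparison, the 5 interactions of lowest p, and up to 5 called cosines per genotype (the 2 of lowest p where none was called); other names follow substrate groups. Alternatives were another scaling, pseudocount and filter, library sets (the lower- and the higher-numbered library of each group), leaving out each library, and leaving out the doubted pair. Promoter sequences are from RefSeq (GRCm38.p6), and gene positions from GENCODE (GRCm38). The values of 1 member, which is included in the counts, are not reported here.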

Additional observations from a re-analysis of the deposited data

Results flagged for a closer look

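The Bmal1 effect in APCmin/- organoids minus that in APC+/+ organoids passed the interaction test (limma, 88 libraries) for 19 members. It was negative for Slc25a23 (-0.95), Slc25a35 (-0.88), Slc25a20 (-0.56), Slc25a11 (-0.51), Slc25a45 (-0.35), Slc25a27 (-0.34), Slc25a4 (-0.30), Slc25a29 (-0.29), Slc25a39 (-0.26) and Slc25a38 (-0.10), on the log2 scale. It was positive for Slc25a43 (0.59, tested only through the genotype where it is high), Slc25a32 (0.40), Slc25a15 (0.40), Slc25a25 (0.39), Slc25a10 (0.35), Slc25a33 (0.32), Slc25a1 (0.25), Slc25a14 (0.21) and Slc25a5 (0.092). Slc25a38, Slc25a39 and Slc25a45 did not pass under median-of-ratios scaling, nor Slc25a5, Slc25a14 and Slc25a38 in the authors' quantile-normalized tables, nor Slc25a38 without both doubted libraries, nor Slc25a5, Slc25a38 and Slc25a45 with no filter on low values. Leaving out 1 library ended the call for Slc25a38 in 47 cases, for Slc25a5 in 21 and for Slc25a45 in 13 of 88. None of the 19 passed with library set means as the units.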

How the results depend on the processing

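Counts of called members moved most where library sets were made the units, a choice added after seeing the data. They were then 0 in Bmal1-null against control (12 of 12654 genes), 0 in Apc-min Bmal1-null against Apc-min (336 of 12885), 20 in Apc-min against control (5833 of 13663) and 0 in the interaction (445 of 13846). In Bmal1-null against control, 4 members were called under median-of-ratios scaling (558 of 12648 genes). The authors' quantile-normalized tables, which were normalized within each genotype, gave 4 (582 of 12475), and the higher-numbered libraries alone gave 0 (249 of 12660). Leaving out each library gave 1 to 2 in Bmal1-null against control, with 1 without control 44 h replicate 1 (405 of 12654). The 24 h cosine in Apc-min called 11 members with library set as a term (4179 of 12625 genes) and 3 without both doubted libraries (401 of 12633). A straight line called 11 (3943 of 12625) and time as a factor 0 (0 of 12625). Leaving out each library gave 3 to 10, with 401 of 12633 genes at the lowest and 2643 of 12621 at the highest. In Apc-min Bmal1-null the cosine called 1 in the quantile-normalized tables (417 of 12042 genes) and 7 without both doubted libraries (1444 of 12126). A straight line called 6 there (1030 of 12206), and leaving out each library gave 0 to 7, with the 7 from the doubted library. In Bmal1-null a straight line called 3 (842 of 12550 genes). The causes were not tested.

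Directions that turned were Slc25a29 (0.10, lower-numbered libraries) in Apc-min Bmal1-null minus Apc-min, and in Apc-min minus control Slc25a39 (-0.071 under median-of-ratios scaling and -0.025 in higher-numbered libraries), Slc25a29 (0.017 in higher-numbered libraries), Slc25a28 (-0.037) and Slc25a3 (-0.0095), both under median-of-ratios scaling. Over 126 results of single members, 1139 of 1255 alternative values kept direction and call, 107 lost the call, 3 gained it and 6 turned. Depth limits Slc25a34, Slc25a43 and Slc25a27, which lie near or under 1 TPM in some genotypes. No paired analysis was possible because replicate numbers follow accession order and pair no samples. Library set as a term, which is not such a pairing, called 26 members in Apc-min Bmal1-null against Apc-min and 23 in the interaction. Without that term 20 and 19 were called. The share of all genes is not given for these counts, so nothing particular to the family is drawn from them.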
